A study of Bos taurus with 32 samples.

Results

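The liver chemically changes drugs, plant compounds, solvents and its own steroids, bile acids and aldehydes so that they can leave the body. Enzymes of phase I, among them the cytochrome P450s (CYP), flavin-containing monooxygenases (FMO), epoxide hydrolases (EPHX), aldehyde dehydrogenases (ALDH) and aldo-keto reductases (AKR), oxidise, hydrolyse or reduce the compound. Enzymes of phase II, among them the UDP-glucuronosyltransferases (UGT), sulfotransferases (SULT) and glutathione S-transferases (GST), attach a polar group. Described here are the bovine genes whose annotated symbol belongs to these 8 families, leaving out CYP11A1, CYP27A1, CYP51A1 and CYP4A11. They were 63 of the 9155 genes that the array annotation names, taken by symbol and not by their values, each read from its probe set (the group of probes for 1 transcript) with the highest mean over all arrays.

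RNA from liver biopsies of Ayrshire dairy cows was hybridised to Affymetrix bovine arrays. The cows were fed a high-energy diet (HIGH) or a controlled-energy diet (CON) for 6 weeks before they were due to calve, and a biopsy was taken 8 d ahead of the predicted date (-8 d), then 1 d and 9 d after the cow had calved. The arrays numbered 5 for HIGH at -8 d, 5 for CON at -8 d, 6 for HIGH at 1 d, 4 for CON at 1 d, 6 for HIGH at 9 d and 6 for CON at 9 d, 32 in all. They came from 12 cows, 6 per diet, where the design text has 16 cows allocated, and 8 cows (5 HIGH and 3 CON) had an array on all 3 days. All cows calved and began to lactate between the first biopsy and the later ones, so calving, lactation, the day and the end of the prepartum diets cannot be told apart in a comparison of days.

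Values are log2 values made by the authors with RMA, a method that removes background, gives all arrays 1 distribution and then joins the probes into 1 value per probe set. A change of 1 is therefore a doubling relative to the bulk of probe sets. Changes and their standard errors (SE) are from limma, fitted to 6 group means over all 24016 probe sets with cow as a random block. They can differ slightly from differences of plain means. A probe set was called higher or lower when its p, adjusted by Benjamini-Hochberg over all probe sets, was under 0.05. In bulk tissue, fewer cells of a type and less RNA per cell cannot be told apart.

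Markers of hepatocytes, 14 genes including ALB (serum albumin), read a mean of 13.07 ± 0.07 at -8 d, 13.15 ± 0.05 at 1 d and 13.06 ± 0.08 at 9 d (SD, n = 10, 10 and 12), with 5 of the 14 called higher and 6 lower at 1 d than at -8 d. The 6 measured neutrophil markers moved with the days: their mean per array was 5.63 to 6.30 at -8 d, 6.50 to 8.08 at 1 d and 5.92 to 6.98 at 9 d, and 4 of the 6 (S100A8, S100A9, S100A12 and LTF) were called higher at 1 d than at -8 d. MPO and ELANE, the other two of that list, had mean log2 values of 5.16 and 3.65 and were not called. Of 14 T and NK cell markers, 6 were called lower at 1 d than at -8 d and none higher. An RNA quality measure also moved: the 3' minus 5' control difference of EF1a was -0.84 to -0.47 at -8 d, -1.43 to -0.85 at 1 d and -1.07 to -0.65 at 9 d, while that of GAPDH averaged 0.543, 0.534 and 0.579 on the 3 days. That of actin was 3.87 on the 9 d array of CON cow 528 (CON 9 d replicate 6) and at most 2.20 on the other 31 arrays. Without that array 24 of the 63 genes were called higher and 2 lower at 9 d than at 1 d, and 6 higher and 4 lower at 9 d than at -8 d. With all 32 arrays these counts were 24 and 2, and 6 and 5. In that fit 6.11% of all probe sets were called higher and 6.99% lower at 9 d than at 1 d. Against -8 d the shares at 9 d were 5.18% and 4.25%. The part of these shifts in the changes given below was not tested.

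The 63 genes were among the brighter features of the array. Their median log2 value over all arrays was 10.06, against 5.9 for all probe sets, and 34.9% of them averaged 12 or more, against 2.1% of all. Brightness also reflects how well probes bind, so it does not rank transcripts by abundance. Only 7 members averaged below 5, against 36.8% of all probe sets: CYP11B1, CYP19A1 and CYP21A2 of steroid hormone synthesis, ALDH1B1, ALDH3A1, UGT8 and SULT4A1. None of these 7 was called in any comparison of days.

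The first comparison asks what happened to the detoxification genes over calving, averaged over both diets. At 1 d, 28 of the 63 genes (44.4%) were called lower than at -8 d and 3 were called higher. Over all probe sets, 11.6% were called lower and 11.5% higher. The members' median change was -0.14, against -0.02 for all probe sets. The contrast with the background was also seen among bright features: of the 22 members averaging 12 or more, 16 were called lower and 0 higher, where 27.8% of all 504 probe sets of that level were called lower and 21.6% higher.

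By 9 d most of that difference was no longer called. Relative to 1 d, 24 of the 63 genes (38.1%) were called higher and 2 lower, against backgrounds of 6.11% higher and 6.99% lower. The members' median change was 0.13, against 0.0 for all probe sets. Relative to -8 d, 6 genes were called higher at 9 d and 5 lower, against backgrounds of 5.18% and 4.25%, and the median was -0.01. The 1 d arrays stand in both the fall and the later rise, so a low reading on those arrays moves both comparisons in opposite directions. For the same reason the changes are given side by side below and no overlap between them is counted.

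**Figure D1:**
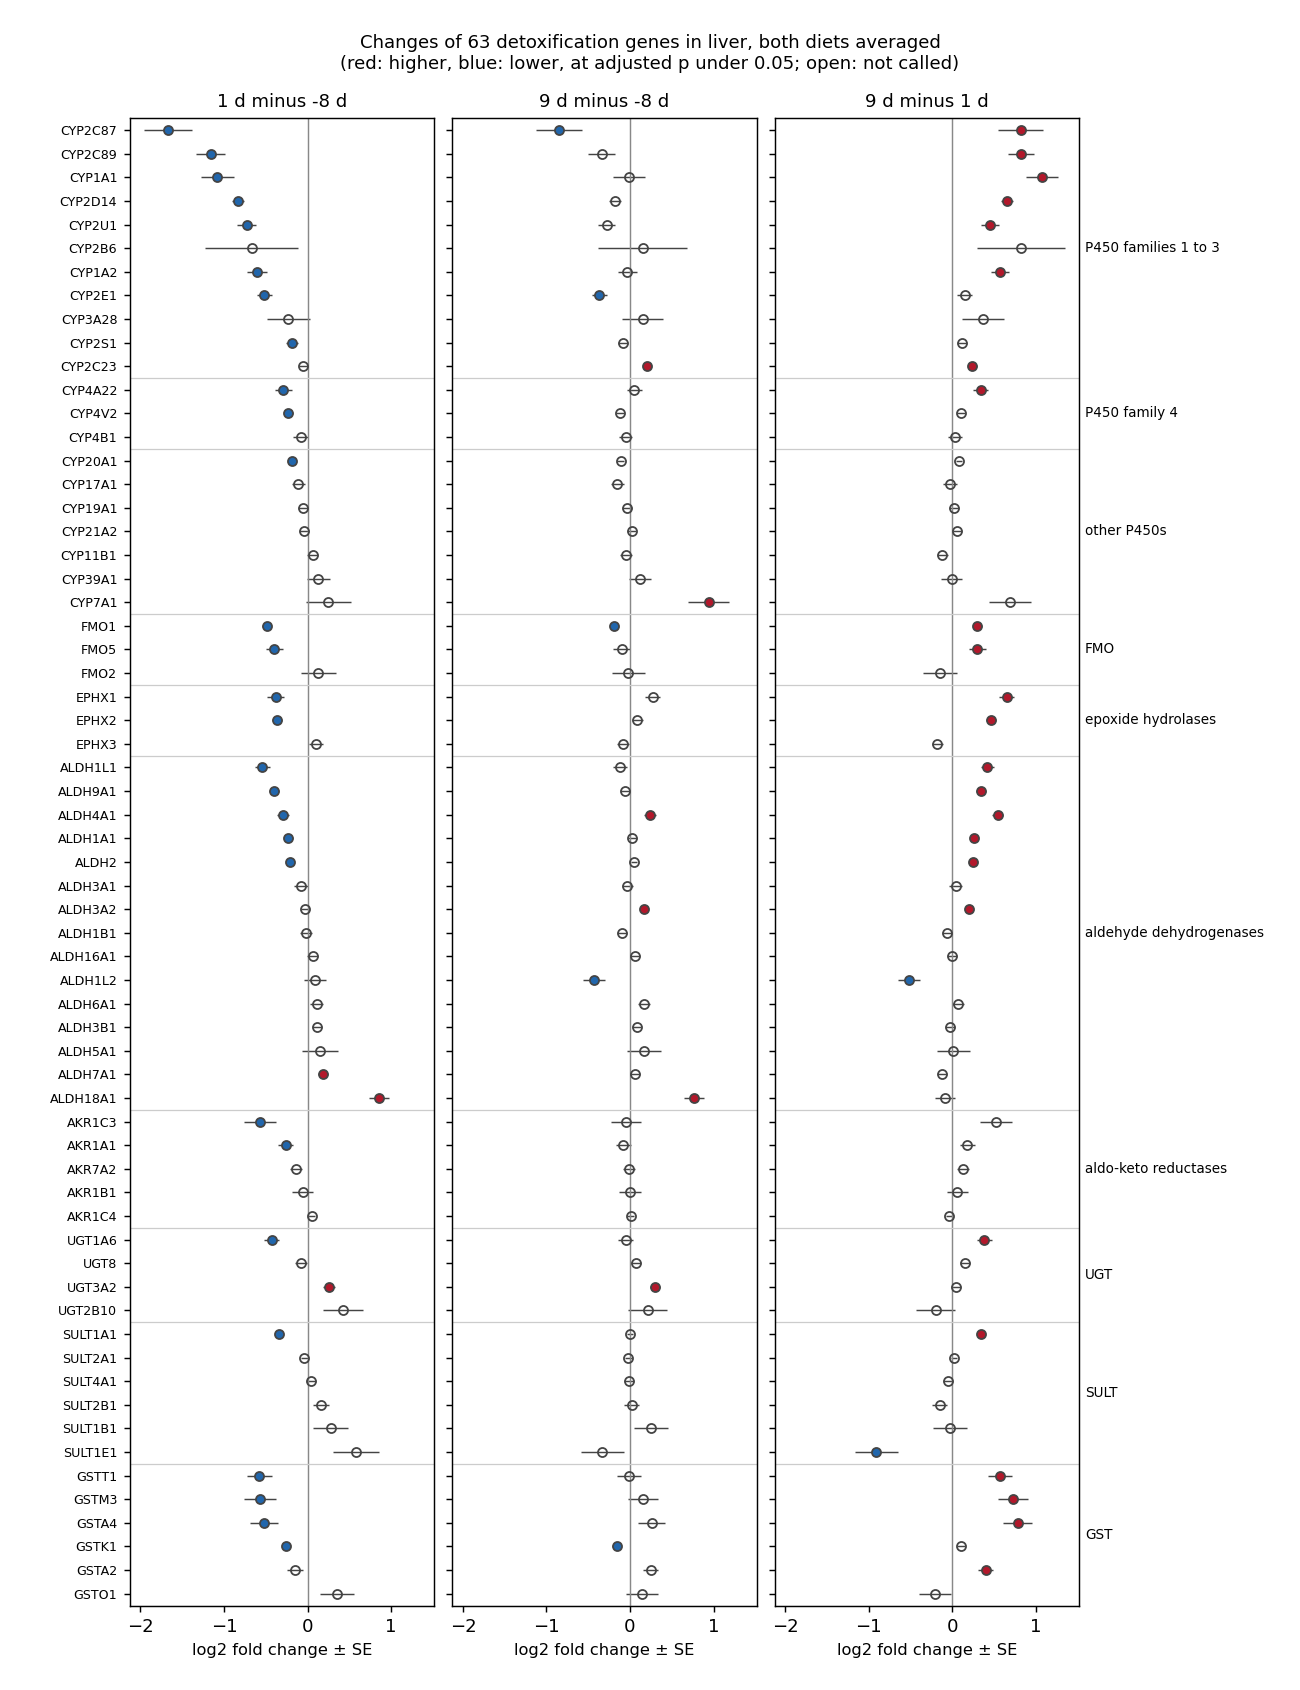
Log2 fold change of each of the 63 genes (rows, grouped by enzyme family) between days, averaged over the diets, with its SE as a bar; the panels are 1 d minus -8 d, 9 d minus -8 d and 9 d minus 1 d, and filled points passed an adjusted p under 0.05. Most filled points lie left of 0 in the first panel (28 lower, 3 higher) and right of 0 in the third (24 higher, 2 lower), with the P450s at the top showing the widest swings.

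The P450s of families 1 to 3, best known for oxidising drugs and other foreign compounds, had 8 of 11 genes called lower at 1 d than at -8 d and 0 called higher, with a median change of -0.67. All 11 had a negative change. Over all probe sets 11.6% were called lower and 11.5% higher. At 9 d, 7 of the 11 were called higher than at 1 d (6.11% of all probe sets), with a median of 0.57. Against -8 d 1 was called higher and 2 lower, where the shares over all probe sets were 5.18% and 4.25%.

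CYP2C87, of the CYP2C subfamily, had the deepest fall of all members. Its log2 value was 7.78 to 10.2 (median 8.95) at -8 d, 6.41 to 8.25 (median 7.34) at 1 d and 6.66 to 9.39 (median 8.06) at 9 d. The ranges overlapped, but all 8 cows with both arrays read lower at 1 d than at -8 d. The change was -1.67 (SE 0.29, adjusted p = 6.32e-05, limma), a 3.18-fold drop. At 9 d it was still 0.85 below -8 d (change -0.85, SE 0.27, adjusted p = 0.0403), lower in 9 of 10 cows. That call was lost in 12 of the 32 fits that left out 1 array, with an adjusted p of up to 0.107 without CON -8 d replicate 3, the cow with the highest value. The rise at 9 d over 1 d (0.82, SE 0.27, adjusted p = 0.0422) was likewise lost in 14 of those fits, with an adjusted p of up to 0.0947 without CON 1 d replicate 4.

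CYP2C89, of the same subfamily, read 12.40 to 13.44 (median 13.28) at -8 d, 11.25 to 12.88 (median 11.97) at 1 d and 11.86 to 13.34 (median 12.94) at 9 d. All 8 paired cows read lower at 1 d than at -8 d, and all 10 read higher at 9 d than at 1 d. The change was -1.16 (SE 0.17, adjusted p = 5.43e-06) at 1 d against -8 d and 0.82 (SE 0.16, adjusted p = 0.000516) at 9 d against 1 d. In the RefSeq assembly ARS-UCD2.0, CYP2C87 and CYP2C89 lie on chromosome 26 with 2 coding genes between them. CYP2C23, whose rat counterpart makes epoxides of arachidonic acid, was not called at 1 d against -8 d over both diets (-0.05, SE 0.05, adjusted p = 0.594). Its change at 1 d was -0.21 in HIGH cows (SE 0.07, adjusted p = 0.0433; lower in 5 of 5 cows) and 0.12 in CON cows (SE 0.08, adjusted p = 0.451; lower in 1 of 3 cows). At 9 d CYP2C23 was called higher than at -8 d (0.20, SE 0.05, adjusted p = 0.0119; 10 of 10 cows), though not with only the 8 cows that had all 3 days (adjusted p = 0.133).

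CYP1A1 and CYP1A2, which oxidise flat aromatic molecules and are induced through the aryl hydrocarbon receptor, are neighbours on chromosome 21 with no coding gene between them. CYP1A1 read 12.26 to 13.07 (median 12.84) at -8 d, 10.15 to 12.55 (median 11.91) at 1 d and 12.34 to 13.11 (median 12.75) at 9 d. The spread was wide at 1 d, where HIGH cow 439 (10.15) and CON cow 445 (10.85) were lowest and HIGH cow 432 (12.55) and CON cow 510 (12.53) highest. All 8 cows read lower at 1 d than at -8 d, with a change of -1.08 (SE 0.20, adjusted p = 0.000157), and at 9 d the level differed from that at -8 d by only -0.01 (SE 0.19, adjusted p = 0.987). CYP1A2 changed less, by -0.60 at 1 d against -8 d (SE 0.12, adjusted p = 0.000356) and by 0.57 at 9 d against 1 d (SE 0.11, adjusted p = 0.000667). The receptor gene AHR itself was dim (mean 4.9) and was called lower at 1 d than at -8 d (-0.33, adjusted p = 0.00753).

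CYP2D14, of the drug-oxidising CYP2D subfamily, and CYP2E1, which oxidises ethanol, acetone and other small molecules, separated the first 2 days without overlap. CYP2D14 read 12.89 to 13.37 (median 13.13) at -8 d, 11.89 to 12.75 (median 12.31) at 1 d and 12.76 to 13.28 (median 12.93) at 9 d. Its 1 d arrays thus lay below all arrays of the other days, with changes of -0.83 (SE 0.07, adjusted p = 4.68e-09) at 1 d against -8 d and 0.65 (SE 0.07, adjusted p = 1.54e-07) at 9 d against 1 d. CYP2E1 read 13.92 to 14.21 (median 14.11) at -8 d, 13.14 to 13.90 (median 13.61) at 1 d and 12.91 to 14.09 (median 13.80) at 9 d. It was called lower at 1 d (-0.52, SE 0.09, adjusted p = 0.000139) and also at 9 d (-0.37, SE 0.09, adjusted p = 0.00621; 10 of 10 cows) than at -8 d. Its change at 9 d against 1 d was 0.15 (SE 0.09, adjusted p = 0.312), and it passed only without CON 9 d replicate 2 (adjusted p = 0.0265).

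CYP2U1, a fatty acid hydroxylase in humans, fell to 8.79 to 9.74 (median 9.11) at 1 d, against 9.36 to 10.21 (median 9.96) at -8 d. The change was -0.73 (SE 0.11, adjusted p = 1.31e-05), with 8 of 8 cows lower. CYP2S1, a dim gene (mean 5.39), changed by -0.19 (adjusted p = 0.0332), a call lost in 9 of the fits without 1 array (adjusted p of up to 0.0901 without CON -8 d replicate 2), and its second probe set read 0.06 (adjusted p = 0.55). CYP2B6 and CYP3A28, of subfamilies that oxidise a wide range of drugs, were not called and are described below with the levels of individual cows.

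**Figure D2:**
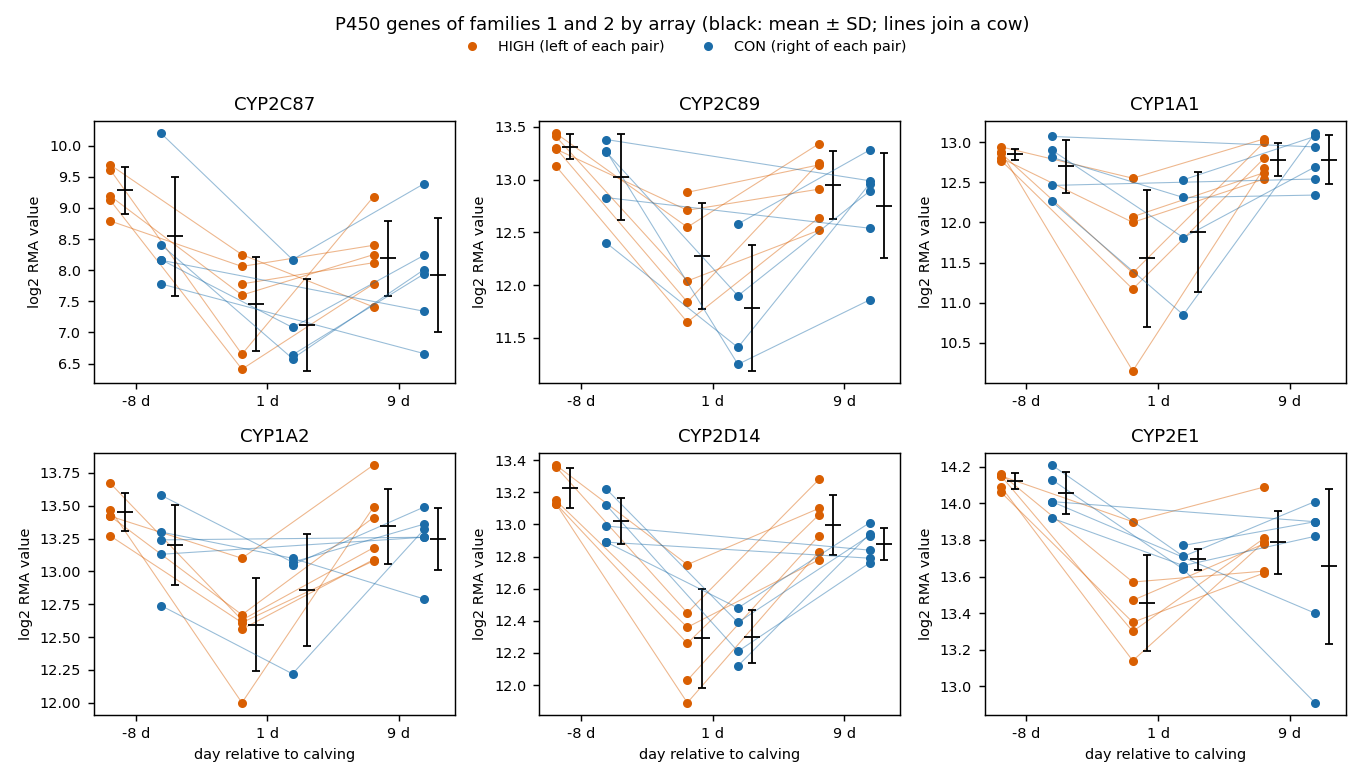
Log2 values of 6 P450 genes on every array, by day relative to calving (horizontal axis), with HIGH cows left and CON cows right of each pair, lines joining the arrays of a cow, and the group mean ± SD in black. For CYP2D14 the 1 d arrays (11.89 to 12.75) lie below those of both other days, and CYP1A1 at 1 d spreads between 10.15 and 12.55.

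The P450s of other families moved less. Of the family 4 genes, which hydroxylate fatty acids, CYP4V2 (-0.23, SE 0.05, adjusted p = 0.00103) and CYP4A22 (-0.29, SE 0.10, adjusted p = 0.0332) were called lower at 1 d than at -8 d, and CYP4B1 was not (-0.08, SE 0.09). The CYP4A22 call was lost in 12 of the fits without 1 array, with an adjusted p of up to 0.109 without CON 1 d replicate 1. The other probe sets of both genes were not called. They read -0.07 (adjusted p = 0.686) and -0.12 (adjusted p = 0.0983) for CYP4V2 and -0.23 (adjusted p = 0.171) for CYP4A22. Of the 7 P450s for sterols, steroids and orphan roles, 1 was called lower at 1 d, against 11.6% of all probe sets. This was CYP20A1, without a known substrate (-0.19, SE 0.04, adjusted p = 0.00223), whose second probe set was not called (-0.08, adjusted p = 0.371).

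CYP7A1, the rate-limiting enzyme of bile acid synthesis from cholesterol, was called higher than at -8 d only at 9 d. Its log2 value was 10.21 to 11.43 (median 10.68) at -8 d, 9.44 to 11.96 (median 11.24) at 1 d and 10.88 to 12.26 (median 11.77) at 9 d. At 1 d the arrays split widely: HIGH cows 462 and 529 (9.44 and 9.67) and CON cow 445 (9.55) lay below every -8 d array, while the other 7 arrays lay between 11.04 and 11.96. The change at 1 d against -8 d was 0.25 (SE 0.27, adjusted p = 0.557). At 9 d it was called higher than at -8 d, by 0.94 (SE 0.25, adjusted p = 0.0145), in 10 of 10 cows. With only the 8 cows that had all 3 days the change was the same size and short of the threshold (0.94, adjusted p = 0.0903). At 9 d against 1 d CYP7A1 was not called, but it passed with cow as a fixed block (0.72, adjusted p = 0.0347). It also passed with only probe sets averaging 5 or more (0.69, adjusted p = 0.0432). CYP39A1, an oxysterol hydroxylase of bile acid synthesis, changed by 0.13 (SE 0.14) at 1 d and 0.12 (SE 0.13) at 9 d against -8 d and was not called.

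Both liver FMO genes of high signal fell at 1 d. FMO1, which oxidises nitrogen and sulfur atoms of drugs, read 13.15 to 13.37 (median 13.27) at -8 d, 12.57 to 13.06 (median 12.73) at 1 d and 12.89 to 13.26 (median 13.07) at 9 d, so that the first 2 days did not overlap. The change was -0.49 (SE 0.05, adjusted p = 3.2e-08) at 1 d and -0.19 (SE 0.05, adjusted p = 0.00785) at 9 d against -8 d. FMO5 changed by -0.40 at 1 d against -8 d (SE 0.10, adjusted p = 0.00444), and 3 of its 4 other probe sets were called lower as well. Its rise at 9 d over 1 d (0.30, SE 0.10, adjusted p = 0.0337) was lost in 6 of the fits without 1 array, with an adjusted p of up to 0.105 without CON 1 d replicate 4, and with cow as a fixed block (adjusted p = 0.0578). Of its 4 other probe sets 1 was called higher at 9 d than at 1 d (0.31), the others read 0.29, -0.01 and -0.41, and the mean of all 5 changed by 0.10 (adjusted p = 0.534). Against -8 d, the brightest FMO5 probe set was not called at 9 d (-0.10, SE 0.10, adjusted p = 0.614). Of its other probe sets 2 were called lower (-0.30, adjusted p = 0.0322, and -0.58, adjusted p = 0.0289). FMO2, next to FMO1 on chromosome 16, changed by 0.13 (SE 0.21, adjusted p = 0.725) at 1 d.

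Epoxide hydrolases open reactive epoxides to diols. EPHX1, the microsomal enzyme that acts on products of P450s, read 12.87 to 13.53 (median 13.35) at -8 d, 12.23 to 13.39 (median 12.93) at 1 d and 13.36 to 13.88 (median 13.56) at 9 d. It was lower at 1 d than at -8 d by -0.38 (SE 0.10, adjusted p = 0.00416) and higher at 9 d than at 1 d by 0.65 (SE 0.09, adjusted p = 9.23e-06), in 10 of 10 cows. Against -8 d the 9 d change was 0.27 (SE 0.09, adjusted p = 0.0596), higher in 10 of 10 cows but short of the threshold. It passed with cow as a fixed block (0.26, adjusted p = 0.0498). It also passed with only probe sets averaging 5 or more (adjusted p = 0.0365) and with probe sets averaged per gene (adjusted p = 0.0446). EPHX1 has 1 probe set, so these last fits left its values as they were. They changed only the set of features fitted and adjusted over. EPHX2, the soluble enzyme that acts on epoxides of fatty acids, changed by -0.37 (SE 0.06, adjusted p = 7.09e-05) at 1 d against -8 d and by 0.46 (SE 0.06, adjusted p = 3.2e-06) at 9 d against 1 d. Its second, dim probe set (mean 4.64) changed by 0.10 and -0.05 and was not called, and averaging both probe sets gave -0.14 and 0.20. EPHX3 was not called (0.10, SE 0.08, at 1 d against -8 d).

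At 1 d, 5 of the 15 aldehyde dehydrogenases were called lower than at -8 d and 2 higher, with a median of -0.02. Over all probe sets 11.6% were called lower and 11.5% higher. Of the 2 called higher, ALDH7A1 had other probe sets called lower, as described below. At 9 d, 6 were called higher than at 1 d and 1 lower, against 6.11% and 6.99% of all probe sets. The 5 that fell included ALDH1A1, which makes retinoic acid (-0.23, SE 0.05, adjusted p = 0.00111), and ALDH2, the mitochondrial enzyme for acetaldehyde (-0.21, SE 0.04, adjusted p = 0.000839; 8 of 8 cows). ALDH1L1, the cytosolic 10-formyltetrahydrofolate dehydrogenase, changed most among them: it read 11.35 to 11.73 (median 11.46) at -8 d, 10.62 to 11.51 (median 10.86) at 1 d and 11.09 to 11.66 (median 11.42) at 9 d. Its change at 1 d was -0.54 (SE 0.09, adjusted p = 3.38e-05). ALDH9A1, an enzyme of carnitine synthesis, changed by -0.40 (SE 0.06, adjusted p = 1.64e-05).

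ALDH4A1 and ALDH18A1 work on proline from opposite sides: ALDH4A1 oxidises an intermediate of proline breakdown to glutamate, and ALDH18A1 makes that intermediate for proline synthesis. ALDH18A1 read 8.42 to 9.61 (median 8.86) at -8 d, 9.13 to 10.17 (median 9.76) at 1 d and 8.95 to 9.88 (median 9.75) at 9 d. It had the largest called rise among the members at 1 d (0.86, SE 0.12, adjusted p = 6.83e-06; 8 of 8 cows) and stayed higher at 9 d than at -8 d (0.77, SE 0.12, adjusted p = 5.72e-05; 10 of 10 cows). ALDH4A1 was 9.60 to 10.41 (median 10.04) at -8 d, 9.58 to 10.03 (median 9.77) at 1 d and 9.75 to 10.59 (median 10.37) at 9 d. It was lower at 1 d than at -8 d (-0.29, SE 0.07, adjusted p = 0.00454) and higher at 9 d than on either earlier day, by 0.54 over 1 d (SE 0.07, adjusted p = 3.53e-06) and by 0.24 over -8 d (SE 0.07, adjusted p = 0.0247). The last of these calls was lost in 3 of the fits without 1 array (adjusted p of up to 0.0632 without CON -8 d replicate 2). It was also lost with no replicate block (adjusted p = 0.053) and with only the cows that had all 3 days (adjusted p = 0.115).

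ALDH1L2, the mitochondrial counterpart of ALDH1L1, was lower at 9 d than at 1 d (-0.52, SE 0.13, adjusted p = 0.00536) and than at -8 d (-0.43, SE 0.13, adjusted p = 0.0277). Its value was 6.36 to 7.58 (median 6.70) at -8 d, 6.23 to 7.51 (median 6.85) at 1 d and 6.00 to 6.64 (median 6.35) at 9 d, and the call against -8 d was lost in 4 of the fits without 1 array (adjusted p of up to 0.0642 without CON -8 d replicate 1). With only the 8 cows that had all 3 days, both ALDH1L2 calls were lost (-0.39, adjusted p = 0.112, at 9 d against 1 d and -0.41, adjusted p = 0.121, at 9 d against -8 d). ALDH3A2, which oxidises fatty aldehydes, was higher at 9 d than at -8 d by 0.17 (SE 0.05, adjusted p = 0.0208), a call lost with only the 8 cows that had all 3 days (adjusted p = 0.13) or no replicate block (adjusted p = 0.0511). ALDH7A1, an enzyme of lysine breakdown, has no settled direction: its brightest probe set was called higher at 1 d than at -8 d (0.19, SE 0.06, adjusted p = 0.0214), while the other two were called lower (-0.54, adjusted p = 0.000109, and -0.33, adjusted p = 0.00564). The ALDH7A1 call of the brightest probe set was also lost without CON 1 d replicate 3 (adjusted p = 0.0628).

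Among the aldo-keto reductases, 2 of 5 were called lower at 1 d than at -8 d, against 11.6% of all probe sets. AKR1C3, a ketosteroid reductase, read 9.49 to 11.40 (median 10.12) at -8 d, 8.44 to 10.46 (median 9.68) at 1 d and 9.52 to 10.79 (median 10.18) at 9 d, with wide overlap. Its change at 1 d against -8 d of -0.57 (SE 0.19, adjusted p = 0.0325) was lost in 8 of the fits without 1 array (adjusted p of up to 0.0731 without CON -8 d replicate 4). AKR1A1, an aldehyde reductase, changed by -0.26 (SE 0.09, adjusted p = 0.0382), lost in 10 of those fits (adjusted p of up to 0.117 without CON 1 d replicate 1). AKR1C4, next to AKR1C3 on chromosome 13, was flat by its brightest probe set, at 14.01 to 14.33 on all arrays (change 0.05, SE 0.04, adjusted p = 0.423). The second of its 6 probe sets, at a mean of 13.87, was called lower at 1 d (-0.43, SE 0.06, adjusted p = 1.01e-05) and higher at 9 d than at 1 d (0.41, SE 0.06, adjusted p = 1.66e-05). Probes of such near relatives can bind each other's transcripts, which was not checked here because probe sequences were not used.

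Of the GSTs, which attach glutathione, 4 of 6 were called lower at 1 d than at -8 d, with a median of -0.39. At 9 d, 4 were called higher than at 1 d. The shares over all probe sets were 11.6% and 6.11%. GSTT1, of the theta class, changed by -0.58 at 1 d (SE 0.15, adjusted p = 0.00472; 8 of 8 cows) and GSTK1, of mitochondria and peroxisomes, by -0.26 (SE 0.05, adjusted p = 0.000376; 8 of 8 cows). GSTK1 was also called lower at 9 d than at -8 d (-0.16, SE 0.05, adjusted p = 0.0348), a call lost in 10 of the fits without 1 array (adjusted p of up to 0.0752 without HIGH 9 d replicate 5) and with cow as a fixed block (adjusted p = 0.0503).

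GSTA4, whose human enzyme clears products of lipid peroxidation, read 10.86 to 11.99 (median 11.50) at -8 d, 10.45 to 12.02 (median 11.0) at 1 d and 10.97 to 12.54 (median 11.86) at 9 d. Its rise at 9 d over 1 d was the firmer change (0.78, SE 0.17, adjusted p = 0.00135; 10 of 10 cows). The fall at 1 d (-0.52, SE 0.17, adjusted p = 0.0289) was lost in 6 of the fits without 1 array (adjusted p of up to 0.0778 without CON 1 d replicate 1). GSTM3, of the mu class, changed by -0.57 at 1 d (SE 0.19, adjusted p = 0.028; 8 of 8 cows), lost without CON 1 d replicate 2 (adjusted p = 0.0631), without HIGH -8 d replicate 5 (adjusted p = 0.0503) and with no replicate block (adjusted p = 0.0672).

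GSTA2, a major alpha-class enzyme, was not called at 1 d against -8 d by its brightest probe set (-0.15, SE 0.10, adjusted p = 0.29), but 2 of its 4 other probe sets were called lower (-0.46, adjusted p = 1.06e-05, and -0.29, adjusted p = 0.00996). All 5 were called higher at 9 d than at 1 d, with changes of 0.32 to 0.50. GSTO1, of the omega class, had a change of 0.35 at 1 d (SE 0.20, adjusted p = 0.233) and was not called.

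SULT1A1, the main sulfotransferase of phenols, read 13.13 to 13.53 (median 13.38) at -8 d, 12.90 to 13.20 (median 12.99) at 1 d and 13.24 to 13.49 (median 13.35) at 9 d. The 1 d arrays lay below all 9 d arrays and overlapped slightly with those at -8 d. The change was small but tight, -0.34 at 1 d against -8 d (SE 0.04, adjusted p = 5.57e-07; 8 of 8 cows) and 0.34 at 9 d against 1 d (SE 0.04, adjusted p = 5.24e-07; 10 of 10 cows). Of the 6 SULT genes only SULT1A1 was called lower at 1 d, against 11.6% of all probe sets. SULT2A1, which sulfates bile acids and steroids, changed by -0.04 (SE 0.04, adjusted p = 0.54). SULT1E1, the estrogen sulfotransferase, was called lower at 9 d than at 1 d (-0.91, SE 0.26, adjusted p = 0.0181; lower in 9 of 10 cows). It read 5.76 to 7.97 (median 6.23) at -8 d, 6.17 to 7.73 (median 6.96) at 1 d and 4.58 to 7.11 (median 6.39) at 9 d. Without CON 9 d replicate 6, which held the value of 4.58 and the high actin difference, the change at 9 d against 1 d was -0.78 (adjusted p = 0.0291). The SULT1E1 change at 1 d against -8 d was 0.58 (SE 0.28, adjusted p = 0.134) and was not called. It passed with only the 8 cows that had all 3 days (0.77, adjusted p = 0.0227). It also passed without CON -8 d replicate 4, which held the value of 7.97 (adjusted p = 0.0415).

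Of the 4 UGTs, 1 was called lower and 1 higher at 1 d than at -8 d, against 11.6% and 11.5% of all probe sets. UGT1A6, which glucuronidates phenols, read 13.25 to 13.46 (median 13.31) at -8 d, 12.41 to 13.35 (median 13.03) at 1 d and 13.15 to 13.37 (median 13.28) at 9 d. Its change was -0.43 at 1 d (SE 0.09, adjusted p = 0.000756) and 0.38 at 9 d against 1 d (SE 0.09, adjusted p = 0.0028). Whether its probe set also reads other UGT1A transcripts was not checked, because probe sequences were not used. UGT3A2 read 6.88 to 7.20 (median 6.98) at -8 d, 6.78 to 7.55 (median 7.29) at 1 d and 7.11 to 7.53 (median 7.26) at 9 d. It was higher than at -8 d on both later days, by 0.26 at 1 d (SE 0.07, adjusted p = 0.00519) and by 0.30 at 9 d (SE 0.06, adjusted p = 0.00224; 10 of 10 cows). With only the 8 cows that had all 3 days, the 1 d call was lost (0.22, adjusted p = 0.0545). UGT2B10 was not called at 1 d (0.42, SE 0.24, adjusted p = 0.227), where it ran between 9.24 in HIGH cow 439 and 12.20 in HIGH cow 432.

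**Figure D3:**
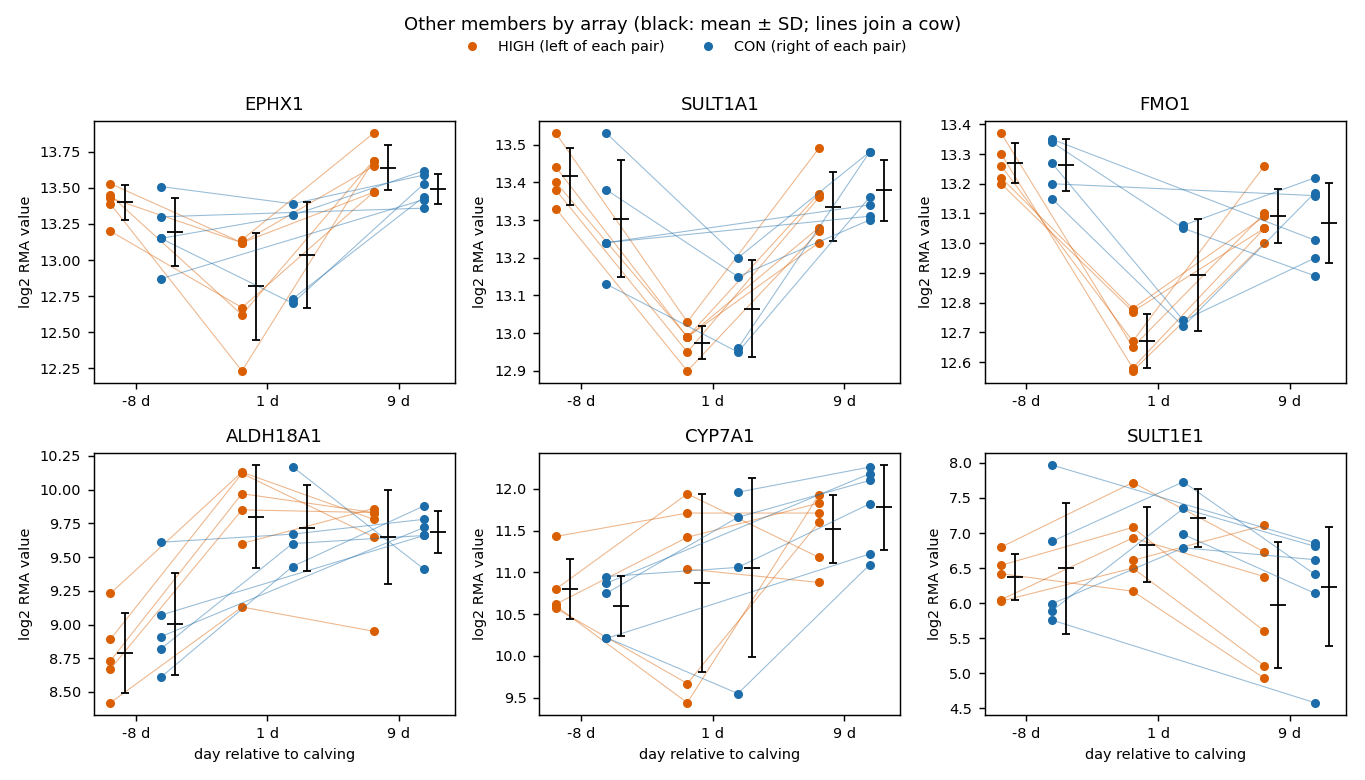
Log2 values of 6 members outside P450 families 1 to 3 on every array, by day relative to calving, with HIGH cows left and CON cows right of each pair, lines joining the arrays of a cow, and the group mean ± SD in black. FMO1 and SULT1A1 dip at 1 d, ALDH18A1 is higher on both later days, and CYP7A1 at 1 d has 3 arrays at 9.44 to 9.67 apart from the other 7.

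The next comparisons ask whether the prepartum diet changed these genes. No member was called between HIGH and CON at -8 d, at 1 d or at 9 d by limma, with 4, 8 and 4 members at an unadjusted p under 0.05. Over all probe sets 0.0% were called at -8 d, 0.00416% at 1 d and 0.0% at 9 d. An unadjusted p under 0.05 was found for 1025, 2013 and 813 of the 24016 probe sets on these days. The members' median differences were 0.04, -0.05 and 0.01.

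GSTT1 had the smallest unadjusted p at -8 d. It read 11.06 to 12.14 in the 5 HIGH cows and 10.44 to 11.03 in the 5 CON cows, without overlap. The difference was 0.85 (SE 0.22, unadjusted p = 0.000501, adjusted p = 1.0). At 1 d it averaged 10.9 ± 0.41 in HIGH cows and 10.36 ± 0.58 in CON cows (SD, n = 6 and 4), a difference of 0.55 (SE 0.22, adjusted p = 0.535). At 9 d the difference was 0.70 (SE 0.20, adjusted p = 0.998), with 11.54 ± 0.43 in HIGH cows and 10.84 ± 0.29 in CON cows (SD, n = 6 each). The days share cows, and GSTT1 levels in part followed the cow (agreement 0.59 on the measure described below), so they are not independent readings of the diet.

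GSTO1 averaged 8.42 ± 0.44 in HIGH cows and 9.26 ± 0.67 in CON cows at -8 d (SD, n = 5 each), a difference of -0.87 (SE 0.30, adjusted p = 1.0). HIGH cow 432 read 7.65 and the other HIGH cows 8.47 to 8.70. GSTO1 levels followed the cow (agreement 0.92 on the measure described below). ALDH4A1 averaged 10.24 ± 0.17 in HIGH cows and 9.88 ± 0.18 in CON cows at -8 d (SD, n = 5 each; difference 0.36, SE 0.11, adjusted p = 1.0). At 1 d its groups averaged 9.75 ± 0.15 and 9.78 ± 0.14 (HIGH and CON; SD, n = 6 and 4). FMO1 had the smallest unadjusted p at 1 d, with 12.57 to 12.78 in the 6 HIGH cows and 12.72 to 13.06 in the 4 CON cows (difference -0.22, SE 0.07, adjusted p = 0.44).

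Within HIGH cows, 25 members were called lower and 1 higher at 1 d than at -8 d, against backgrounds of 7.88% lower and 8.7% higher. Within CON cows, 9 were called lower and 1 higher, against 3.01% and 3.33%. The medians over the 63 genes were -0.15 in HIGH cows and -0.11 in CON cows, and those over the P450s of families 1 to 3 were -0.85 and -0.37. At 9 d against 1 d, 24 were called higher and 1 lower in HIGH cows (backgrounds 4.43% and 4.71%). In CON cows 7 were called higher and 0 lower (1.39% and 1.37%). There 25 of the 63 members had an unadjusted p under 0.05, as did 3606 of the 24016 probe sets. HIGH cows had 6 arrays at 1 d and CON cows 4, so the tests within CON cows had less precision.

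The difference between the diets in these changes was tested itself. At 1 d, no member was called (0.0% of all probe sets), and 9 had an unadjusted p under 0.05. At 9 d, no member was called (0.0% of all probe sets) and 0 had an unadjusted p under 0.05. Of the 24016 probe sets, 1723 had such a p at 1 d and 789 at 9 d. At 1 d the smallest unadjusted p was that of CYP2C23 (-0.33, SE 0.11, unadjusted p = 0.00511, adjusted p = 0.579). The change of CYP1A2 at 1 d was -0.85 in HIGH cows (SE 0.16) and -0.35 in CON cows (SE 0.18), and their difference between diets was -0.50 (SE 0.24, unadjusted p = 0.0429, adjusted p = 0.694). The counts of called genes within each diet therefore do not show that the diets differed.

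**Figure D4:**
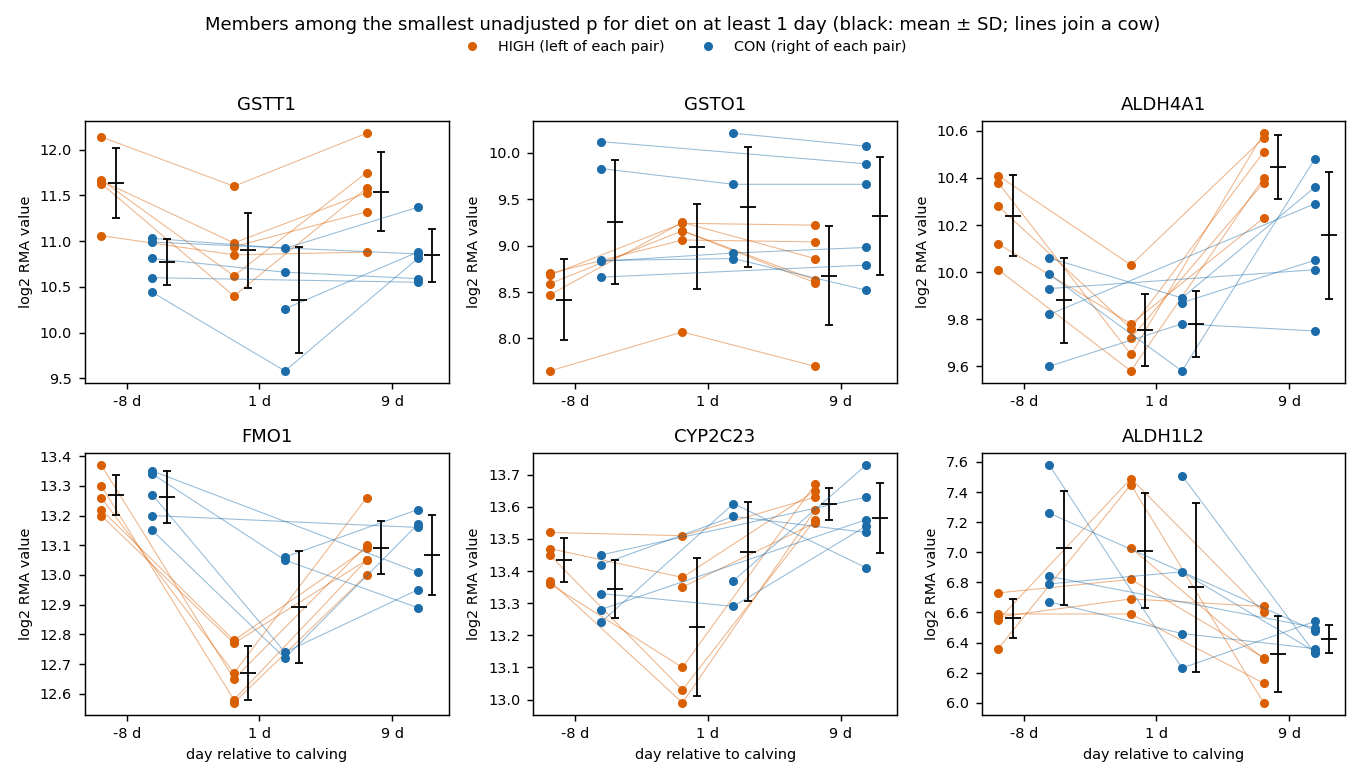
Log2 values of 6 members with small unadjusted p for diet on at least 1 day, by day relative to calving, with HIGH cows left and CON cows right of each pair, lines joining the arrays of a cow, and the group mean ± SD in black. At -8 d the GSTT1 values of HIGH cows (11.06 to 12.14) lie above those of CON cows (10.44 to 11.03), and none of the 6 genes passed the adjusted threshold for diet.

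Several members differed more between cows than between days. After group means were removed, the agreement of a gene between arrays of the same cow on different days (a correlation over 28 pairs of arrays that share cows, given as a description) had a median of 0.28 over the members and 0.13 over all probe sets. It was 0.5 or more for 13 of the 63 genes (20.6%), against 9.28% of all probe sets and 15.9% of those averaging 8 or more. Highest were CYP2B6 (0.94), CYP3A28 (0.93), GSTO1 (0.92), SULT1B1 (0.89), ALDH5A1 (0.88) and GSTM3 (0.82). These 6 were picked for description after their values were seen.

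CYP2B6, the P450 that phenobarbital-type inducers act on in humans, spanned the widest range. In day order, HIGH cow 460 read 10.55, 9.91 and 10.25, and CON cow 483 read 10.46, 10.12 and 10.45. HIGH cow 432 read 6.93, 6.52 and 6.64, and CON cow 477 read 6.75, 6.72 and 7.34. High and low cows occurred in both diets. With this spread, its change at 1 d against -8 d (-0.67, SE 0.56, adjusted p = 0.422) was not called although 8 of 8 cows read lower, and 10 of 10 cows read higher at 9 d than at 1 d (0.82, SE 0.53, adjusted p = 0.349). With cow as a fixed block, which compares days within cows only, both passed (adjusted p = 0.00161 and 4.68e-05).

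CYP3A28, of the CYP3A subfamily, was low in HIGH cows 432 (11.56, 11.39 and 11.59) and 460 (11.56, 10.85 and 11.50), while all other arrays read 12.28 or more. Among the fits run it too passed only with cow as a fixed block, for the fall at 1 d against -8 d (-0.31, adjusted p = 0.00565) and the rise at 9 d over 1 d (0.39, adjusted p = 0.000586). GSTO1 was low in HIGH cow 432 (7.65, 8.07 and 7.70) and passed in that fit in the opposite directions, at 1 d against -8 d (0.28, adjusted p = 0.00478) and at 9 d against 1 d (-0.21, adjusted p = 0.0338). SULT1B1 passed in it at 1 d and at 9 d against -8 d (0.30, adjusted p = 0.00662, and 0.32, adjusted p = 0.00466).

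GSTM3 was low on all 3 days in HIGH cow 462 (11.26, 9.86 and 11.42), below every other array of the same day, and the same cow's CYP2B6 values of 10.08, 9.13 and 10.14 were not low. SULT1B1, which sulfates phenols and thyroid hormones, was low in HIGH cow 432 (9.28, 9.73 and 9.59), CON cow 510 (9.31 and 9.55 at 1 d and 9 d) and CON cow 528 (9.13 and 9.37 at -8 d and 9 d). ALDH5A1, an enzyme of the breakdown of the neurotransmitter GABA, was 8.26 and 8.08 in HIGH cow 512 at 1 d and 9 d and 6.40, 6.37 and 6.64 in HIGH cow 529 on the 3 days. Among these genes, picked for agreement within cows, the cows that were low thus differed between genes. Over all members, some 1 d arrays ran low together. There the mean deviation from the group mean was negative in CON cow 445 (-0.15) and HIGH cows 439 (-0.1), 462 (-0.11) and 529 (-0.12). It was 0.03 to 0.21 on the other 1 d arrays. At -8 d and 9 d it was -0.07 to 0.1 in cows 445, 439, 462 and 529. Why their 1 d arrays ran low was not tested. Whether probe binding differed between cows was not tested.

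**Figure D5:**
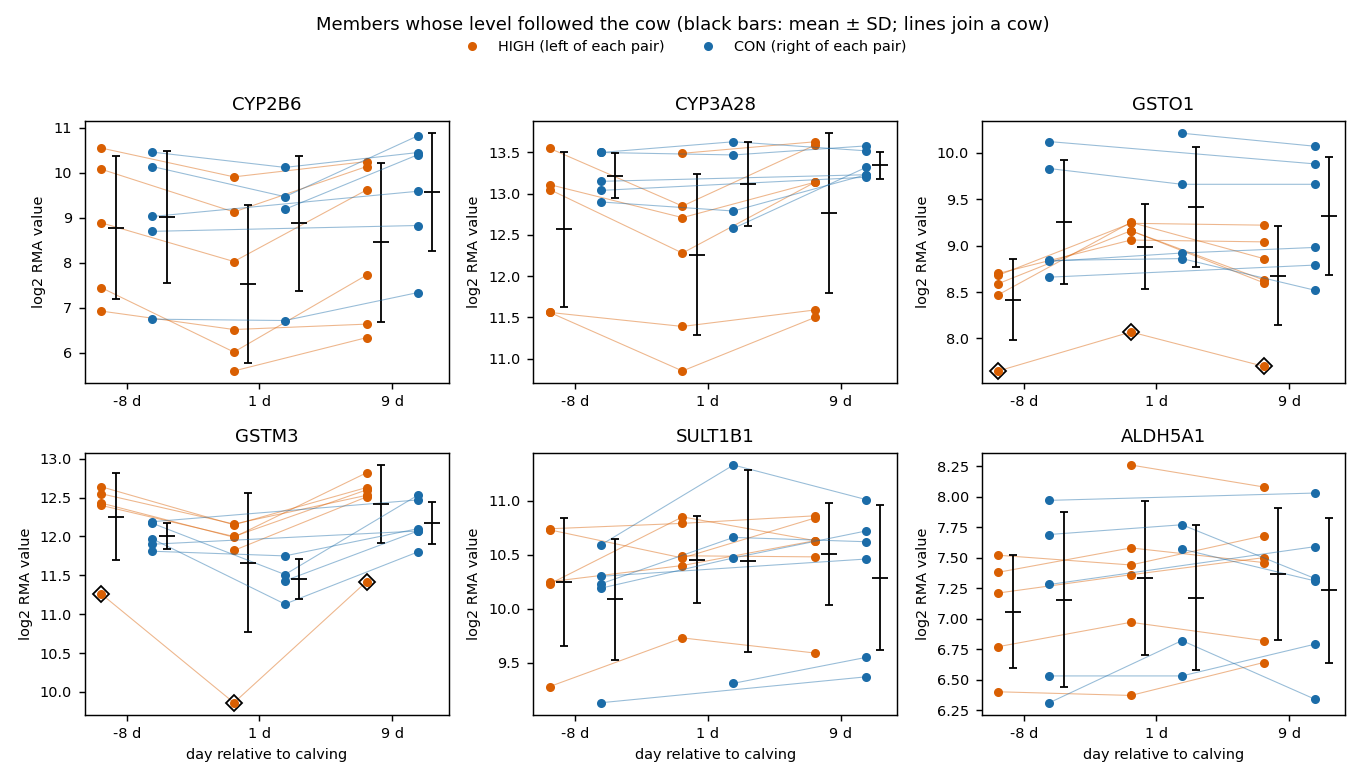
Log2 values of 6 members chosen for the agreement between days within cows, by day relative to calving, with HIGH cows left and CON cows right of each pair, lines joining the arrays of a cow, and the group mean ± SD in black. Open diamonds mark HIGH cow 462 for GSTM3 and HIGH cow 432 for GSTO1; the lines run near level compared with the gaps between cows, as for CYP2B6, which spans 5.60 to 10.82.

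Genes that work with these enzymes were read as whole lists. Of 23 measured partners and other phase I enzymes, 4 were called higher and 8 lower at 1 d than at -8 d, with a median of -0.15, and 11 were called higher and 1 lower at 9 d than at 1 d. The shares over all probe sets were 11.5% higher and 11.6% lower at 1 d against -8 d, and 6.11% and 6.99% at 9 d against 1 d. POR, the reductase that feeds electrons to the P450s of the endoplasmic reticulum, changed by -0.30 at 1 d (adjusted p = 0.00955), and CYB5R3, the reductase of cytochrome b5, by -0.39 (adjusted p = 1.06e-07). PON1, the serum paraoxonase, changed by -0.34 (adjusted p = 1.04e-06). AOX1, aldehyde oxidase, changed by -0.77 (adjusted p = 5.15e-07), and CES2, a carboxylesterase of drugs, by -0.53 (adjusted p = 3.22e-06). Higher at 1 d were XDH, xanthine dehydrogenase (0.52, adjusted p = 0.000666), SUOX, sulfite oxidase (0.43, adjusted p = 3.34e-05), NQO2 and PON2.

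Of 17 other phase II genes, 5 were called higher and 4 lower at 1 d than at -8 d, with a median of 0.02, against the same 11.5% and 11.6% of all probe sets. GNMT, which uses up methyl groups on glycine, rose most of the 5 (1.43, adjusted p = 1.61e-05). MGST1, a microsomal glutathione transferase, fell (-0.32, adjusted p = 1.41e-06) and GLYAT, which conjugates glycine, fell (-0.18, adjusted p = 0.0162). GCLM and GSR, for making and recycling glutathione, rose (0.57, adjusted p = 5.14e-06, and 0.43, adjusted p = 0.0345), while GSS, glutathione synthetase, fell (-0.33, adjusted p = 0.000141). Of 17 regulators, 3 were called higher (FOXA3, HNF4A and CEBPB, by 1.06, 0.50 and 0.44) and 2 lower (AHR and PGRMC1, by -0.33 and -0.32), a share near that of all probe sets (11.5% and 11.6%). NR1I3, the receptor CAR that controls CYP2B genes, had a mean of 4.77 and changed by -0.09 (adjusted p = 0.45). Of 10 transporters, 1 was called higher (SLC22A7, 0.59, adjusted p = 0.0318) and 2 lower, among them the uptake carrier SLCO2B1 (-0.47, adjusted p = 1.72e-05), which for so short a list is also near the 11.5% and 11.6% of all probe sets.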

How the data were processed

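Liver RNA from 32 biopsies was measured on Affymetrix arrays with biotin-labelled cRNA, per the labels' protocols. The deposited log2 values were made by the authors with Affymetrix Expression Console 1.1 and RMA, per the submitters' processing notes, and RMA settings, scan dates and batches are not given in the sources used here. RMA sets arrays to 1 distribution (array medians 5.87 to 5.935), so changes are relative, and it can compress those of very bright and very dim probe sets. Detection calls were not used here. Precision is set by how many arrays a group has.

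The table holds 24128 probe sets, and the 24016 that are not controls were tested (112 controls). The annotation gave 1 symbol to 13292, several to 86 and none to 10638, and 13263 were matched to RefSeq (ARS-UCD2.0) by gene ID. The 63 members had 99 probe sets, and 2 shared by DDT and GSTT2 were left out. Values were fitted with limma 3.58.1 in R 4.3.3, two-sided, with 26 residual degrees of freedom, a mean-variance trend and cow as a random block (consensus correlation 0.138). Cow numbers in the labels pair the arrays: same-cow arrays correlated at a mean of 0.323 (28 pairs, 0.229 to 0.464) after group means were removed. For pairs of different cows on the same diet and on different days the mean was -0.0638 (142 pairs). The replicate numbers of the titles were not used to pair. The fit was tested on simulated data. Alternatives were no replicate block, cow as a fixed block, no trend, probe sets averaging 5 or more, arrays centred on their medians, all probe sets of a gene averaged, only cows with all 3 days, and each array left out in turn.

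The members and lists were chosen with earlier results of these data known. Named by rule were, per comparison of days, up to 12 members with the largest called rise and 12 with the largest called fall of the same sign in both diets, per diet or diet-by-time comparison the 5 with the smallest p, the 8 brightest, a set of well-known enzymes, and up to 4 genes of each other list. Genes outside that rule, such as ALDH9A1, FMO5, SULT1B1, ALDH5A1, POR, XDH and AHR, were named after their values were seen.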

Additional observations from a re-analysis of the deposited data

Results flagged for a closer look

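In 378 tests of 63 genes in 6 groups, 31 had a lowest or highest array far from the others of its group by Dixon's criterion, which chance gives in about 1 in 20 groups. HIGH cow 462 was lowest for GSTM3 on all 3 days: 11.26 at -8 d (others 12.40 to 12.64), 9.86 at 1 d (others 11.82 to 12.16) and 11.42 at 9 d (others 12.51 to 12.82). It was also lowest for EPHX2 at -8 d (11.51, others 11.81 to 11.92) and ALDH1B1 at 9 d (4.59, others 4.81 to 4.94). HIGH cow 432 was lowest for GSTO1 at -8 d (7.65, others 8.47 to 8.70) and 1 d (8.07, others 9.06 to 9.25), for SULT1B1 at 9 d (9.59, others 10.48 to 10.86) and for ALDH18A1 at 9 d (8.95, others 9.65 to 9.86), and highest for ALDH1A1 at -8 d (14.34, others 14.29 to 14.30).

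CON cow 528 was lowest for SULT1E1 at 9 d (4.58, others 6.14 to 6.86), SULT1B1 at -8 d (9.13, others 10.19 to 10.59) and CYP4B1 at -8 d (4.87, others 5.26 to 5.31). The same cow was highest for GSTA2 at 9 d (14.54, others 14.22 to 14.34) and AKR1C4 at -8 d (14.27, others 14.11 to 14.15). CON cow 510 at 1 d was highest for AKR7A2 (9.04, others 8.16 to 8.31) and AKR1C4 (14.28, others 14.15 to 14.16) and lowest for ALDH3A2 (11.74, others 12.04 to 12.05). AKR7A2 was called lower at 1 d than at -8 d (adjusted p = 0.00302, limma) when that array, CON 1 d replicate 4, was left out, and not with it (adjusted p = 0.192).

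CON cow 445 at 1 d was lowest for CYP1A2 (12.22, others 13.05 to 13.10) and highest for CYP19A1 (4.90, others 4.81 to 4.82). CON cow 477 was lowest for CYP1A2 at 9 d (12.79, others 13.26 to 13.49) and highest for AKR7A2 at -8 d (8.69, others 8.57 to 8.59). CON cow 483 was highest for CYP2C87 at -8 d (10.20, others 7.78 to 8.41), and CON cow 527 was lowest for AKR1A1 at 9 d (10.61, others 10.81 to 10.87). In HIGH cows, cow 439 was highest for CYP7A1 at -8 d (11.43, others 10.57 to 10.80) and CYP20A1 at 1 d (9.15, others 8.78 to 8.87), and cow 460 for EPHX2 at 1 d (11.60, others 11.11 to 11.28). Cow 512 at 9 d was lowest for ALDH7A1 (10.06, others 10.30 to 10.38) and highest for CYP2S1 (5.61, others 5.34 to 5.40). Cow 529 was highest for EPHX3 at -8 d (7.66, others 7.34 to 7.43) and CYP11B1 at 9 d (5.13, others 4.94 to 5.00).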

How the results depend on the processing

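Over 1 d against -8 d, the 28 members called lower became 23 to 28 when 1 array was left out in turn, and the 3 called higher became 2 to 4. Members called higher numbered 5 with cow as a fixed replicate block, and the added calls were for SULT1B1 and GSTO1. For 9 d against -8 d, members called higher numbered 2 with only the cows with all 3 days and 5 to 8 without 1 array, against 6. ALDH3A2 and ALDH4A1 lost this call with no replicate block, and EPHX1 and SULT1B1 gained it with cow as a fixed block. Those called lower numbered 3 with no replicate block, 2 with only the cows with all 3 days and 2 to 5 without 1 array, against 5. They numbered 2 without HIGH -8 d replicate 2 and 3 without CON -8 d replicate 2 or 5, HIGH -8 d replicate 4, CON 9 d replicate 5, or HIGH 9 d replicate 4 or 5. For 9 d against 1 d, the count lower was 1 with only the cows with all 3 days, against 2, and the count higher was 22 to 26 without 1 array, against 24. No member was called for diet or diet by time in any of the fits run. The ALDH7A1 change reversed when all probe sets were averaged, to -0.23 at 1 d against -8 d and 0.24 at 9 d against 1 d, because 2 of its 3 probe sets moved that way. Of 31 called members at 1 d against -8 d, 8 lost their call in at least 1 alternative, as did 7 of 11 at 9 d against -8 d. Of the 26 at 9 d against 1 d, those that lost it were ALDH1L2, ALDH3A2, CYP2C87, CYP4A22, FMO5 and GSTM3. With only the cows with all 3 days (24 arrays), 7 of the 31, 7 of the 11 and 5 of the 26 lost their call, with adjusted p of 0.0545 to 0.184, 0.0903 to 0.215 and 0.0726 to 0.239. The fixed block gave no other change of call than those named in the report and, at 9 d against -8 d, lower calls for CYP2C89 (adjusted p = 0.036) and CYP2U1 (adjusted p = 0.0464) and, at 9 d against 1 d, a higher call for CYP7A1 (adjusted p = 0.0347).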
